A study of Mus musculus with 5 samples.

Results

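Interferon-stimulated genes are the genes a cell switches on when interferon tells it of a virus, a microbe or tissue damage. The 37 mouse genes described here were chosen by name as established members of this program, a rule that uses no measured value, and all 37 were found among the 52143 genes of the table. They comprised 5 regulators of transcription, 3 sensors of foreign RNA, 3 IFIT proteins, 6 members of the OAS family, 3 genes of the ISG15 system, 5 interferon-inducible GTPases, 9 other antiviral effectors and 3 further genes. A level high enough to be tested, a TPM of at least 1 in at least 2 samples, was reached by 24 of them and by 10338 genes in all.

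RNA came from colon tumors of female mice, collected on day 87 of an AOM/DSS protocol that joins the carcinogen azoxymethane to repeated injury of the colon by dextran sulfate sodium. Azoxymethane was given at 10 mg/kg, and 2.0% dextran sulfate sodium was given for 5 days with 14 days of recovery, over 4 cycles. Mice of both groups carried Villin1-Cre-ERT, a Cre recombinase that is driven by an intestinal epithelial promoter and woken by tamoxifen, and both received tamoxifen for 5 days from 8 weeks of age, at 10 mg/ml. The 3 SIGLEC12 samples (replicates 2, 3 and 4) were from mice that were also heterozygous for a human SIGLEC12 knock-in at ROSA26, which a CAG promoter drives once Cre has removed a stop cassette, whereas the 2 Control samples (replicates 1 and 4) were from littermates with the Cre alone. Siglec-XII, its product, belongs to the sialic acid-binding immunoglobulin-like lectins but in humans has lost an arginine needed to bind sialic acid, and it was thus directed to epithelial cells and not to the immune cells of the tumor. The question addressed here is whether the interferon program differed between tumors with and without Siglec-XII.

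Interferon signalling runs from receptor to promoter. Type I and type III interferons bind their receptors on the cell surface, the kinases JAK1 and TYK2 are activated, and a complex that includes STAT2 and IRF9 then binds the interferon-stimulated response element (ISRE) in the promoters of its targets. Type II interferon (interferon-γ), made mainly by T and NK cells, acts through JAK1 and JAK2 and reaches its targets at the gamma-activated sequence (GAS). In the colon the program is run by epithelial cells and by macrophages and other immune cells, so a bulk tumor sample mixes both, and fewer cells of a type and less RNA per cell cannot be told apart.

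The promoters of many, but not all, of these genes carried the letters of those elements. The RefSeq promoter table on GRCm38.p6, with 250 bases before and 50 bases after each start site, held 29 of the 37 genes. The ISRE core was searched as GAAANNGAAA and the GAS as TTCNNNGAA, where N is any base, on both strands, and overlapping matches were counted separately. The ISRE core lay in the window of 17 of the 29 genes (58.6%), beside 3.99% of the 27025 genes of the table, and the GAS letters lay in 10 of the 29 (34.5%), beside 9.55%. Promoter stretches of 4 of the genes described in full below show the arrangements found. They run 5′ to 3′ on the strand of the gene, end before its start site, and have the matched letters in capitals.
Irf1: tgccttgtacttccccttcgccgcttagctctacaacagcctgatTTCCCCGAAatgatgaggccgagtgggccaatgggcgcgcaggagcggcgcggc
Oas1a: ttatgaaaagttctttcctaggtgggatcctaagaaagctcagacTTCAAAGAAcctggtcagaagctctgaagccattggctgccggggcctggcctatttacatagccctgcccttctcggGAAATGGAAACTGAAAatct
Isg20: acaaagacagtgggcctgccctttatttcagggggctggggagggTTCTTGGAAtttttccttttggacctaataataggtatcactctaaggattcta
Stat2: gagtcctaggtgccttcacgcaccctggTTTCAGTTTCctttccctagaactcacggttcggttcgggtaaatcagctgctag
The Irf1 stretch (chr11:53769879-53769977, plus strand) held 1 GAS match, and the Isg20 stretch (chr7:78913306-78913404, plus strand) also held 1 GAS match. In Oas1a (chr5:120907526-120907668, minus strand) a GAS match stood upstream of 2 ISRE cores that overlapped each other. In Stat2 (chr10:128270248-128270330, plus strand) the ISRE core read on the opposite strand. Neither set of letters was found in the windows of Ifi44, Irf7, Irf9, Oasl1, Oasl2, Trim25 and Xaf1. A match describes letters and was not tested for binding.

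Levels below are log2(TPM + 1) as deposited, and series of 5 values run from Control replicates 1 and 4 to SIGLEC12 replicates 2, 3 and 4. TPM is relative to all RNA in a sample, and transcripts of protein-coding genes took 5.7% and 6.73% of it in the Control samples and 8.75% to 9.72% in the SIGLEC12 samples. Each protein-coding gene therefore tended to read higher in the SIGLEC12 samples: the median log2 fold change (SIGLEC12 minus Control) of all 10338 genes was 0.38 as deposited and 0.01 after every sample was rescaled to the same protein-coding total. Fold changes are given on both scales for this reason. Epithelial markers such as Epcam (4.92 to 7.06) and Krt19 (6.52 to 9.23) were high in every sample, while human SIGLEC12 matched no symbol of the table and could not serve to check the groups. The labels do not say how many tumors a sample holds, and p-values measure the spread between these samples.

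No interferon-stimulated gene passed the test for a difference between the groups. Limma called 0 of the 24 tested genes at an adjusted p under 0.05, where it also called 0.0% of the 10338 genes in either direction (on both scales). At an unadjusted p under 0.05, 2 of the 24 (8.33%), Irf8 and Oas1a, were higher in SIGLEC12 samples, beside 33.4% of all genes, and none was lower, beside 0.909%. Every SIGLEC12 value exceeded every Control value for 7 of the 24 (29.2%), beside 54.1% of all genes, and none lay wholly below, beside 1.67%. These 7 were Irf8, Oas1a, Trim25, Irgm1, Isg20, Ifitm3 and Ifi35. All 24 log2 fold changes were positive, beside 87.2% of all genes, with a median of 0.48, beside 0.38.

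After rescaling, this lean towards SIGLEC12 was smaller. The median of the 24 was 0.18, beside 0.01 over all genes. Above 0 were 17 of the 24 (70.8%), beside 51.1% of all genes, and 7 were below. The groups overlapped for each of the 24, beside 15.6% of all genes with SIGLEC12 wholly higher and 16.8% with SIGLEC12 wholly lower. No member had an unadjusted p under 0.05, beside 4.45% of all genes higher and 6.31% lower, and the smallest adjusted p of a member was 0.539. The plot of fold changes sets both scales beside the median of all genes.

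**Figure D1:**
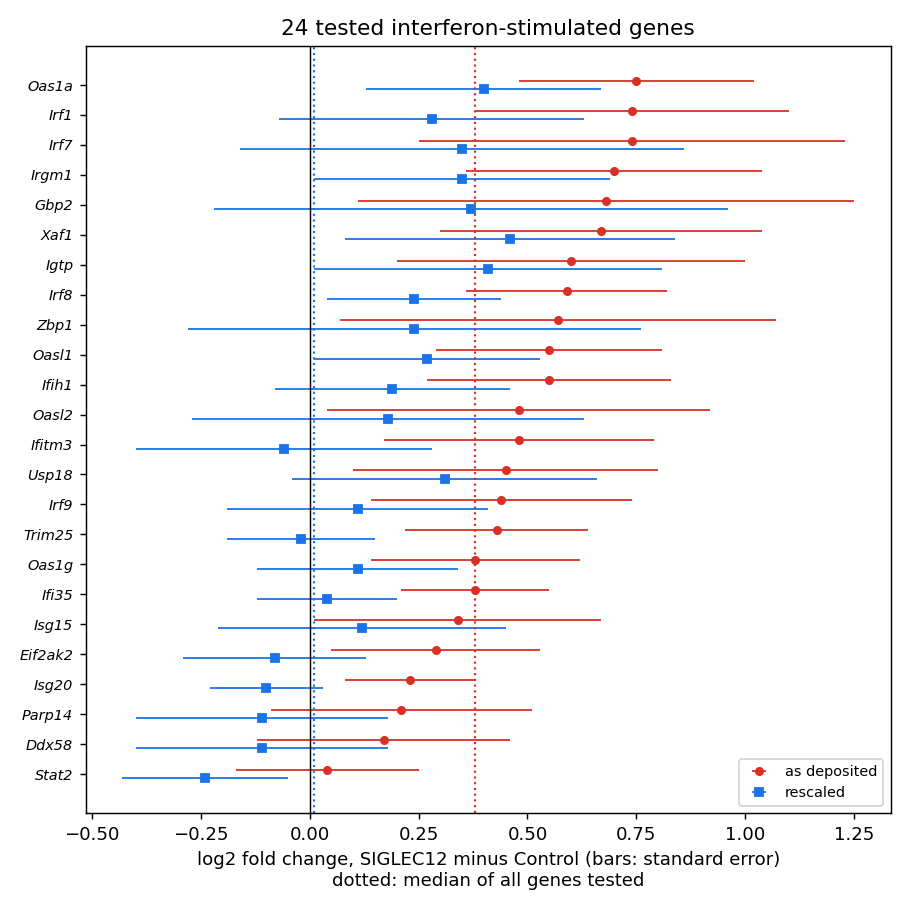
Log2 fold change (SIGLEC12 minus Control, x axis) of the 24 tested genes (y axis) with its standard error, as deposited (red circles) and rescaled (blue squares), from 2 Control and 3 SIGLEC12 samples. Dotted lines mark the median of all 10338 genes, 0.38 as deposited and 0.01 rescaled, and 7 of the genes fall below 0 after rescaling.

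Among the regulators, Irf1, an activator induced strongly by interferon-γ and the second most abundant of the 24, stood at 1.95, 2.92, 3.57, 3.20 and 2.77. Its highest values were in SIGLEC12 replicates 2 and 3, but SIGLEC12 replicate 4 lay below Control replicate 4. The log2 fold change was 0.74 (SE 0.36, adjusted p = 0.182 by limma), and 0.28 rescaled. Irf7, which amplifies type I interferon production, read 1.23, 2.15, 2.97, 2.79 and 1.51, with the same interleaving of groups, and a log2 fold change of 0.74 (SE 0.49, adjusted p = 0.295), 0.35 rescaled.

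Stat2, a subunit of the complex of type I signalling, ranged narrowly, at 0.82, 1.27, 1.23, 1.12 and 0.88. Its log2 fold change was the lowest of the 24, at 0.04 (SE 0.21, adjusted p = 0.901), and it was -0.24 rescaled. Irf9, the DNA-binding subunit of the type I complex, ran from 0.97 to 2.01 with a log2 fold change of 0.44 (0.11 rescaled). Irf8, a factor of macrophages and dendritic cells, ran 1.07, 1.42, 2.09, 1.50 and 1.90, so every SIGLEC12 value was above the Control values, although SIGLEC12 replicate 3 fell below Control replicate 4 after rescaling. It was 1 of the 2 members at an unadjusted p under 0.05 (0.0379).

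Neither of the tested RNA sensors passed the test. Ifih1 encodes MDA5, which detects long double-stranded RNA, and read 1.10, 1.88, 2.32, 2.03 and 1.78, a log2 fold change of 0.55 (SE 0.28, adjusted p = 0.194), 0.19 rescaled. Ddx58 encodes RIG-I, which detects RNA with a 5′ triphosphate, and read 0.64, 1.55, 1.47, 1.18 and 1.15. Control replicate 4 was its highest sample, and its log2 fold change was 0.17 (SE 0.29, adjusted p = 0.662), or -0.11 rescaled. Dhx58, the third member of the family, was under the filter at 0.30 to 0.73.

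The OAS enzymes make a short adenylate that activates the nuclease RNase L. Oas1a, with the largest log2 fold change of the 24, read 0.93, 1.56, 2.15, 2.22 and 1.61. As deposited, the lowest SIGLEC12 value stood just above the highest Control value. Rescaled, SIGLEC12 replicate 4 (1.42) lay below Control replicate 4 (1.72). The log2 fold change of Oas1a was 0.75 (SE 0.27, adjusted p = 0.119 by limma), 0.40 rescaled. Its level is uncertain, because 68.73% of the 31-base words of its transcripts also occur in Oas1g, so reads of the pair can be shared out between them. Oas1g had a log2 fold change of 0.38 (0.11 rescaled). The OAS-like genes Oasl1 and Oasl2 had log2 fold changes of 0.55 and 0.48 (0.27 and 0.18 rescaled). Oas2 (0.05 to 0.25) and Oas3 (0.14 to 0.67) were under the filter.

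The ISG15 system attaches and removes the ubiquitin-like protein ISG15. Isg15 itself was at 0.60, 0.71, 1.23, 1.40 and 0.35, and Usp18, which removes it and restrains interferon signalling, was at 0.18, 0.62, 1.07, 1.27 and 0.20. For both genes, SIGLEC12 replicates 2 and 3 were the 2 highest samples, and SIGLEC12 replicate 4 was lower than Control replicate 4. Their log2 fold changes were 0.34 and 0.45 (0.12 and 0.31 rescaled). Trim25, a ligase for ISG15 and for RIG-I, was higher and more even, at 2.00, 2.40, 2.80, 2.41 and 2.67. It had a log2 fold change of 0.43 (SE 0.21, adjusted p = 0.190), and -0.02 rescaled.

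The interferon-inducible GTPases, which attack membranes of intracellular pathogens and are typical targets of interferon-γ, had the widest spread among the SIGLEC12 mice. Gbp2 read 0.87, 1.52, 2.95, 1.82 and 0.87, so SIGLEC12 replicate 4 matched Control replicate 1 while SIGLEC12 replicate 2 was far above both. Rescaled, SIGLEC12 replicate 4 (0.75) lay below Control replicate 1 (1.11). The log2 fold change was 0.68 (SE 0.57, adjusted p = 0.388), 0.37 rescaled. Irgm1 read 1.07, 1.58, 2.65, 1.85 and 1.59, with SIGLEC12 replicate 4 just above Control replicate 4. On rescaled values SIGLEC12 replicate 4 (1.40) lay below Control replicate 4 (1.74). Irgm1 had a log2 fold change of 0.70 (SE 0.34, adjusted p = 0.183 by limma), 0.35 rescaled. The symbol Irgm1 stood on 2 identifiers, of which the one with the higher level, ENSMUSG00000046879, was used.

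Igtp read 0.37, 0.68, 1.88, 1.05 and 0.46. Iigp1, under the filter because it passed 1 TPM in 1 sample, read 0.04, 0.48, 2.12, 0.75 and 0.26, and Gbp3 read 0.25, 0.42, 1.31, 0.80 and 0.14. In all 5 GTPases SIGLEC12 replicate 2 was the highest of the samples and SIGLEC12 replicate 4 was the lowest of the SIGLEC12 samples. The mean over the 5 genes was 2.18 in SIGLEC12 replicate 2, beside 0.67 in SIGLEC12 replicate 4 and 0.94 in Control replicate 4 (the plot of group means).

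Ifitm3, which blocks the entry of viruses at endosomes, was by far the most abundant of the 37 genes and alone supplied 36.5% to 59.9% of their summed TPM. It read 5.28, 5.36, 5.75, 6.28 and 5.38, SIGLEC12 replicate 4 being nearest to the Control samples on this scale. Rescaled, Ifitm3 read 5.75, 5.59, 5.60, 6.15 and 5.09, with SIGLEC12 replicate 4 the lowest and SIGLEC12 replicate 2 between the Control samples. Its log2 fold change was 0.48 (SE 0.31, adjusted p = 0.284), and -0.06 rescaled. Zbp1, a sensor of Z-form nucleic acids that triggers cell death, read 0.96, 1.70, 2.45, 2.36 and 0.89, the lowest of all in SIGLEC12 replicate 4, with a log2 fold change of 0.57 (SE 0.50, adjusted p = 0.413), 0.24 rescaled.

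Isg20, an RNA exonuclease, was even across the samples at 1.18, 1.13, 1.30, 1.39 and 1.48, with a log2 fold change of 0.23 (SE 0.15, adjusted p = 0.288) that turned to -0.10 on rescaling. As deposited, Isg20 was the member of the 24 whose exact two-sided permutation p was the smallest that 5 samples allow, 0.1. On rescaled values its groups overlapped and the exact two-sided permutation p was 0.4. Parp14, an ADP-ribosyltransferase, read 0.93, 1.54, 1.86, 1.43 and 1.04, with a log2 fold change of 0.21 (SE 0.30, adjusted p = 0.598), -0.11 rescaled. Of the remaining tested genes, Xaf1 had a log2 fold change of 0.67 (0.46 rescaled) and Ifi35 of 0.38 (0.04 rescaled). Eif2ak2, which encodes the kinase PKR, had one of 0.29 that turned to -0.08 on rescaling.

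The 13 genes under the filter, of which Dhx58, Oas2, Oas3, Gbp3 and Iigp1 are given above, were mostly low. Mx1 (0.06 to 0.41) and Mx2 (0.05 to 0.09), which encode GTPases that trap viral nucleocapsids, were near 0 in every sample, as was Rsad2, which encodes viperin (0.09 to 0.38). Bst2, which encodes tetherin, reached 0.95 and Ifi44 0.40. Ifit1, whose product binds foreign RNA, read 0.39, 0.55, 1.25, 0.97 and 0.16, while Ifit2 reached 0.80 and Ifit3 0.69. Ifit3 is uncertain, since 61.81% of its 31-base words occur in other genes, mainly Ifit3b. In Ifit1, Ifit2 and Ifit3, SIGLEC12 replicate 2 was the highest sample and replicate 3 the next. The plot of levels by sample shows all 37.

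**Figure D2:**
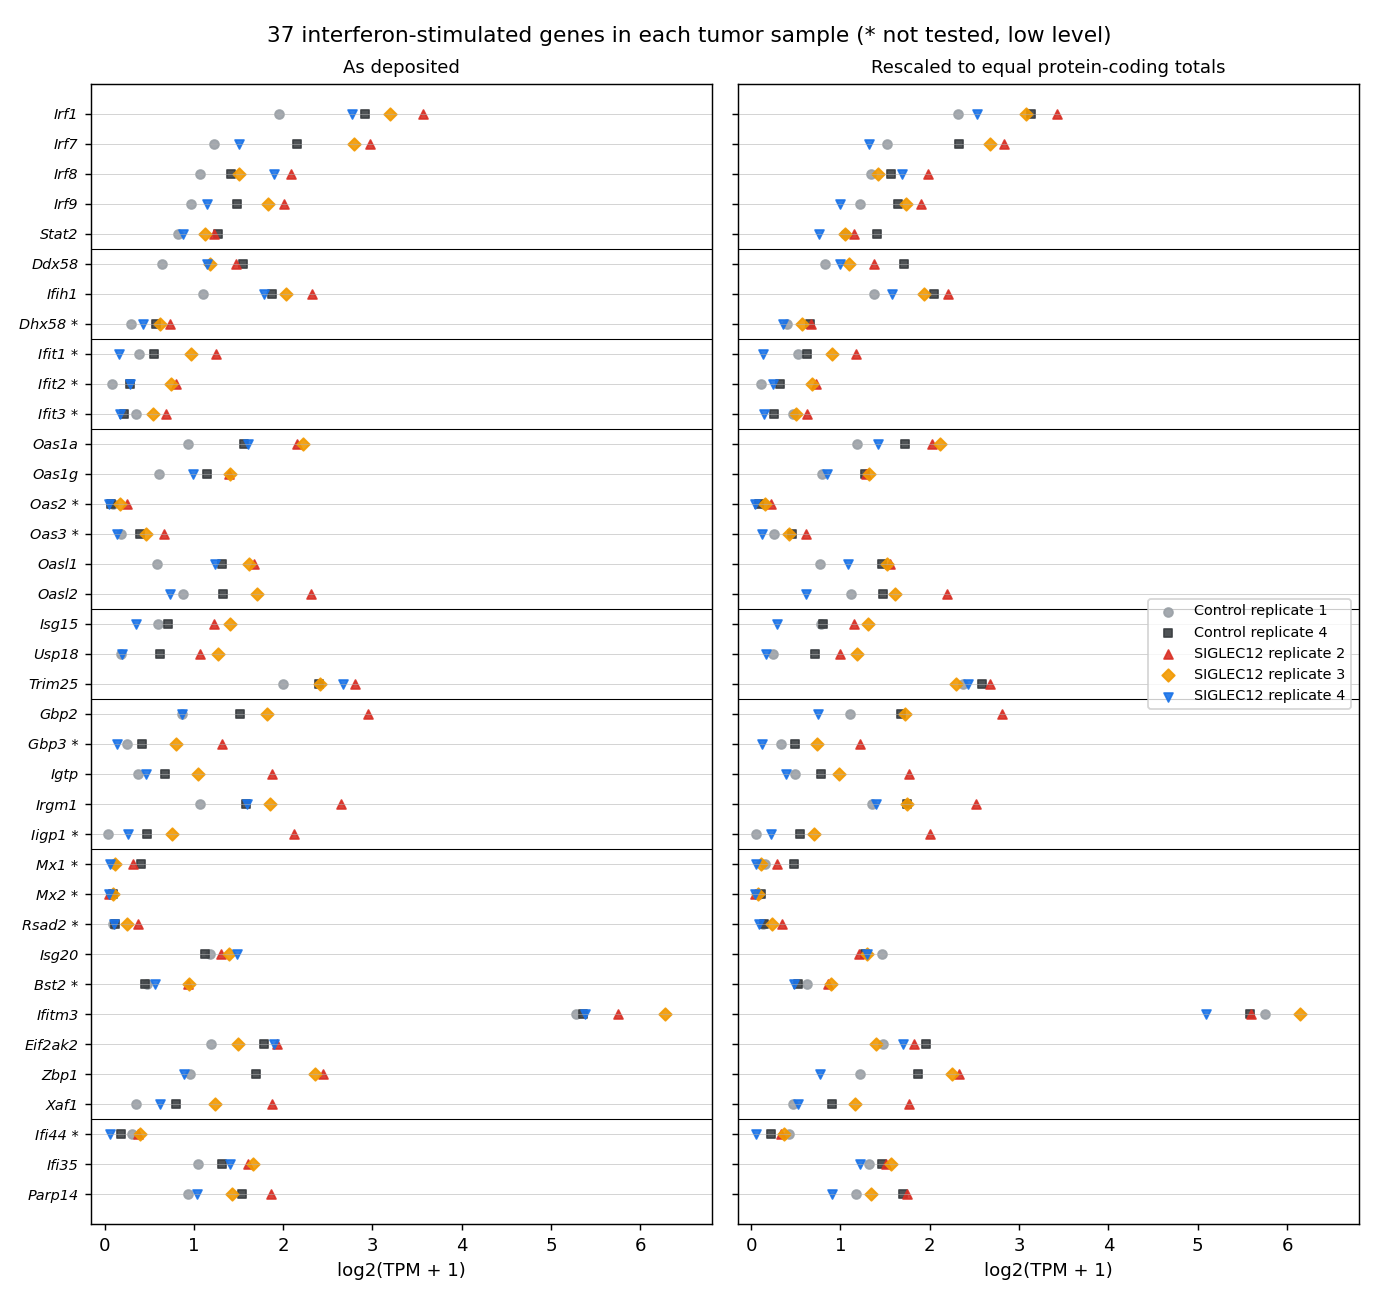
Level of each of the 37 genes (y axis, ordered by role, * marks genes too low to test) in each of the 5 samples (points) as log2(TPM + 1), as deposited (left) and rescaled (right). Ifitm3 lies far above the others. As deposited, SIGLEC12 replicate 4 often falls among the Control points. Rescaled, it is the lowest of the 5 samples for 22 of the 37 genes (59.5%).

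**Figure D3:**
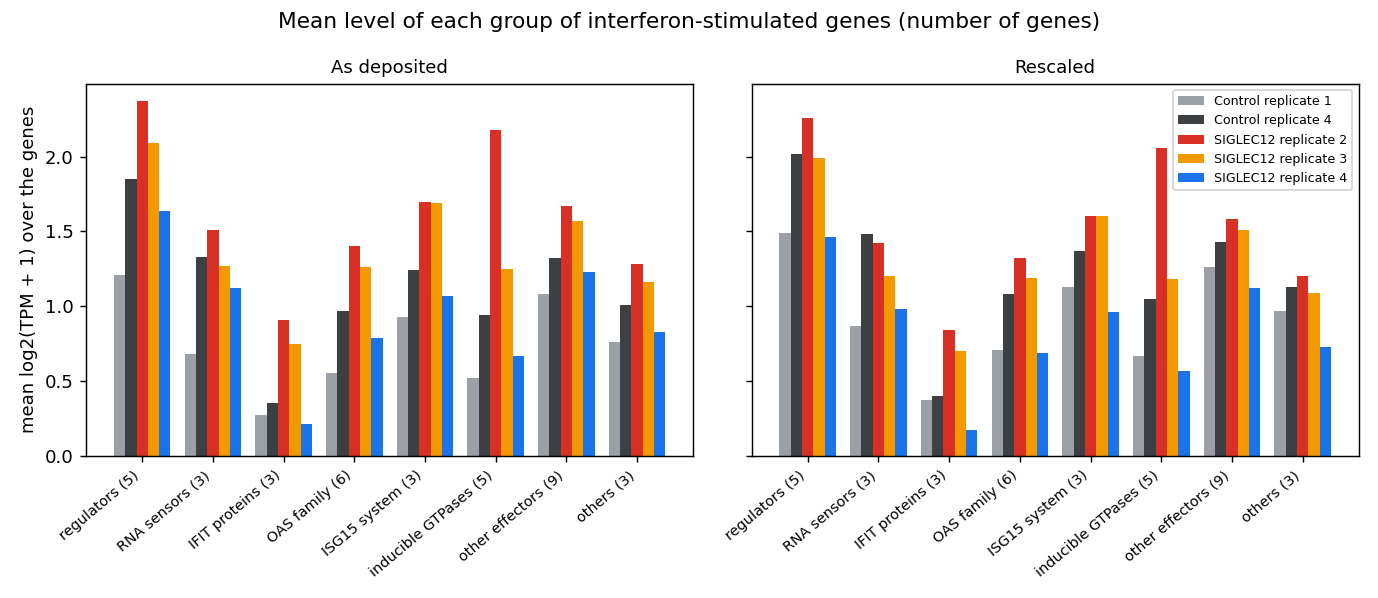
Mean log2(TPM + 1) over the genes of each role (x axis, number of genes in parentheses) in each sample (bars, 1 value per sample, no error), as deposited and rescaled. The interferon-inducible GTPases reach 2.18 in SIGLEC12 replicate 2 as deposited, against 0.52 to 1.25 in the other samples.

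The SIGLEC12 samples themselves lay far apart for these genes. Over the 24 tested genes, the median gap between the highest and lowest SIGLEC12 sample was 0.80 as deposited, beside 0.35 over all genes tested, and 0.87 rescaled, beside 0.32. The counts that follow are on rescaled values. SIGLEC12 replicate 4 was the lowest of the SIGLEC12 samples for 20 of the 24 (83.3%), beside 35.8% of all genes, and it lay below Control replicate 4 for 22 of the 24 (91.7%), beside 58.2%. As deposited, these counts were 20 (83.3%, beside 23.8%) and 16 (66.7%, beside 19.6%). On rescaled values, replicate 2 was the highest of all 5 samples for 14 (58.3%), beside 15.7%, and replicate 3 for 6 (25.0%), beside 20.3%. These shares describe genes that move together in 5 samples and carry no test. Isg15, Usp18, Igtp and Xaf1 reached a TPM of 1 only in SIGLEC12 replicates 2 and 3, so they passed the filter through those samples. Over all 37 genes, without the filter, SIGLEC12 replicate 4 was the lowest SIGLEC12 sample for 32 (86.5%) on rescaled values.

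**Figure D4:**
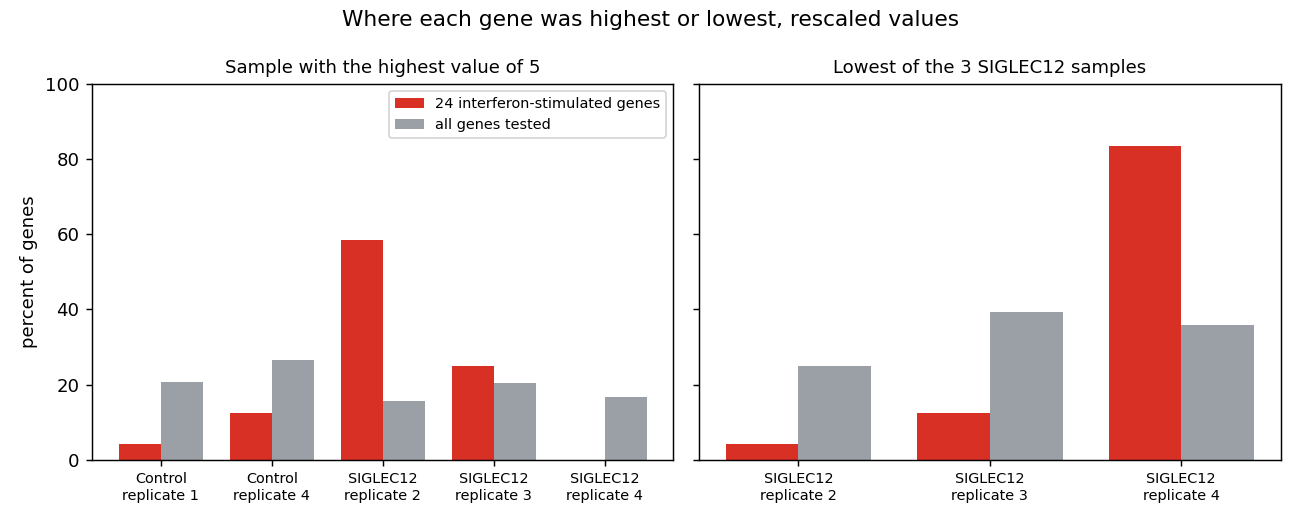
Percent of genes (y axis) for which each sample held the highest value of 5 (left) or the lowest of the 3 SIGLEC12 values (right), for the 24 tested interferon-stimulated genes (red) and all 10338 genes tested (grey), on rescaled values. SIGLEC12 replicate 4 was the lowest SIGLEC12 sample for 83.3% of the interferon-stimulated genes.

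The counts turned on single samples. SIGLEC12 replicate 4 was the lowest SIGLEC12 sample for 20 of the 24 in these same values. Leaving it out therefore tends to raise the counts of higher genes, which add no independent support. Without SIGLEC12 replicate 4, 20 of the 24 genes were wholly higher in SIGLEC12 as deposited (83.3%, beside 58.8% of all genes) and 14 were on rescaled values (58.3%, beside 24.8%). Without it, 12 of the 24 genes as deposited (beside 22.8% of all genes) and 5 rescaled (20.8%, beside 4.11%) were higher at an unadjusted p under 0.05, and the median log2 fold change was 0.69 and 0.40. The 5 were Zbp1 (0.74), Isg15 (0.44), Oas1a (0.62), Irf7 (0.83) and Xaf1 (0.77). None passed the adjusted threshold, the smallest adjusted p by limma being 0.526. Of the 5, Isg15 and Xaf1 had passed the filter on low values only through SIGLEC12 replicates 2 and 3. The same held for Usp18 and Igtp among the 24. Isg15, Xaf1, Usp18 and Igtp were all counted among both the 20 and the 14 genes wholly higher without SIGLEC12 replicate 4. Without Control replicate 1 the median was instead 0.25 as deposited and -0.04 rescaled, and Stat2 and Ddx58 were wholly lower in SIGLEC12 (8.33% of the 24, beside 8.75% of all genes), joined by Eif2ak2 on rescaled values (12.5%, beside 35.7%). Without Control replicate 4, 20 genes were wholly higher as deposited (83.3%, beside 79.0%) and 9 rescaled (37.5%, beside 40.0%). In that fit limma called 1493 genes higher and 113 lower at the adjusted threshold as deposited, none of them among the 24, whose smallest adjusted p was 0.0548.

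**Figure D5:**
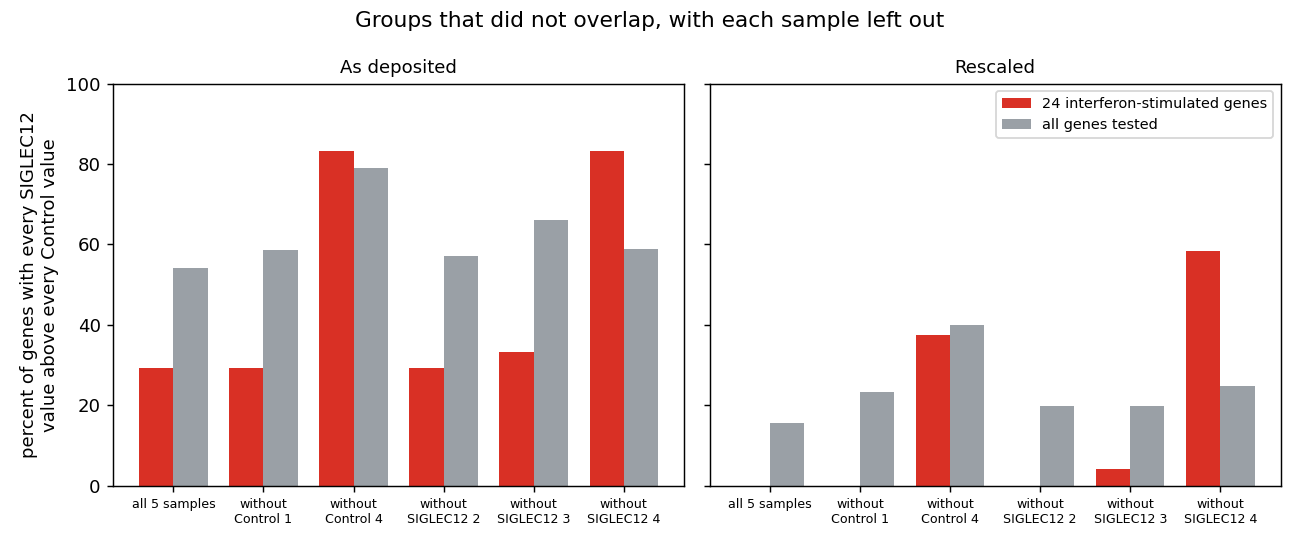
Percent of genes (y axis) with every SIGLEC12 value above every Control value, with all 5 samples and with each sample left out (x axis), for the 24 interferon-stimulated genes (red) and all genes tested (grey). On rescaled values the share of the interferon-stimulated genes is 0 with all samples and 58.3% without SIGLEC12 replicate 4. That sample was the lowest SIGLEC12 sample for 83.3% of them in these same values, so leaving it out tends to raise the share.

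Markers of macrophages and monocytes were also lower in SIGLEC12 replicate 4 than in replicates 2 and 3. Their summed TPM, over 10 markers, was 14.0 and 8.09 in Control replicates 1 and 4 and 27.5, 33.1 and 11.0 in SIGLEC12 replicates 2, 3 and 4. Rescaled, these sums were 19.5, 9.55, 24.7, 30.1 and 8.97, so SIGLEC12 replicate 4 moved from above Control replicate 4 to below it. Lyz2, which encodes lysozyme, read 2.38, 1.39, 3.20, 3.86 and 1.83, and the complement gene C1qa read 1.40, 0.67, 1.96, 1.85 and 0.63. The order was not that of the interferon-stimulated genes in the Control samples, where Control replicate 1 had the higher macrophage markers and the lower interferon-stimulated genes. Fibroblast markers were highest in SIGLEC12 replicate 2, with a summed TPM of 57.9 beside 8.71 to 24.4 in the other samples (52.0 beside 12.2 to 20.0 rescaled). Columnar epithelial markers summed to 309 and 902 TPM in Control and to 1100, 1080 and 1710 TPM in SIGLEC12. Rescaled, the sums were 432, 1060, 987, 978 and 1400, with SIGLEC12 replicate 4 the highest on either scale.

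Markers of T and NK cells and of dendritic cells were low throughout. The 8 T and NK cell markers summed to 0.998 TPM or less in every sample, with Ncr1 at 0.00 to 0.03, and the 6 dendritic cell markers to 0.688 TPM or less. The 6 B and plasma cell markers summed to 0.448 to 10.3 TPM, mostly Igha, which was highest in SIGLEC12 replicate 2. Neutrophil markers summed to 21.8 and 25.3 TPM in Control and to 24.8, 46.0 and 53.9 TPM in SIGLEC12 (30.4, 29.8, 22.3, 41.8 and 44.1 rescaled), and endothelial markers to 4.27 TPM or less. The part of these cells in the levels of the interferon-stimulated genes was not tested.

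The rest of the pathway was read from lists of ligands, receptors, sensors, restraining genes and other targets. Of 21 interferon genes, 13 were listed at 0 in every sample and none reached the filter. Ifnb1, Ifnl2 and most Ifna genes were among the 13, Ifng was listed above 0 in SIGLEC12 replicate 2 alone, at 0.04, and the highest ligand value was 0.25, for Ifnk in Control replicate 4. Without a depth, a value of 0 in this table does not show that a ligand was absent.

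The receptors and their kinases were expressed. Of 9 genes, 8 were tested and 0 passed the adjusted threshold by limma. At an unadjusted p under 0.05, 5 as deposited and 2 rescaled were higher in SIGLEC12, beside 33.4% and 4.45% of all genes. With 0 lower on either scale, the shares of all genes were 0.909% and 6.31%. The 2 higher when rescaled were Ifngr2, the signalling chain of the interferon-γ receptor, and Il10rb, a chain shared by the interferon-λ and interleukin-10 receptors. Ifngr2 read 1.96, 2.88, 3.60, 3.99 and 3.42, with a log2 fold change of 1.25 (SE 0.33, adjusted p = 0.0974), 0.79 rescaled. Il10rb read 1.66, 2.23, 2.83, 2.73 and 2.91, with a log2 fold change of 0.88 (SE 0.22, adjusted p = 0.0974), 0.45 rescaled.

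For both receptor chains all SIGLEC12 values, replicate 4 included, lay above the Control values on both scales. As deposited this held for 7 of the 8 tested receptor and kinase genes and for 7 of the 24, beside 54.1% of all genes. Rescaled it held for 2 of the 8 and for 0 of the 24, beside 15.6% of all genes. Both chains were picked by their p from these same values, so their separation is not independent of that choice. Ifnar1, Ifnar2 and Ifngr1 had log2 fold changes of 0.56, 0.50 and 0.85 as deposited and 0.18, 0.18 and 0.35 rescaled. The kinases Jak1, Jak2 and Tyk2 had log2 fold changes of 0.22, 0.54 and 0.43 as deposited and -0.26, 0.14 and 0.13 rescaled. Ifnlr1, the specific chain of the interferon-λ receptor, was under the filter at 0.42 to 1.04.

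Of the sensing and adaptor list, 12 genes were in the table and 9 were tested. Of these 9, 3 were higher at an unadjusted p under 0.05 as deposited, beside 33.4% of all genes, and 0 rescaled, beside 4.45%. Myd88 (log2 fold change 0.44) and Tlr3 (0.57), adaptor and sensor of the Toll-like receptors, had the smallest p-values, and the rescaled values were 0.04 and 0.25. Among 8 restraining genes, 2 of which were Isg15 and Usp18, 7 were tested. Ptpn2, a phosphatase of JAK kinases, had a log2 fold change of 0.39 (-0.02 rescaled). It was the 1 gene of the 7 higher at an unadjusted p under 0.05, beside 33.4% of all genes. Socs3 had a log2 fold change of 0.66 (0.32 rescaled).

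A list of other interferon-stimulated genes held 62, of which 31 were tested. Limma called 0 of the 31 at the adjusted threshold. As deposited, 11 were higher at an unadjusted p under 0.05, beside 33.4% of all genes, and 0 were lower, beside 0.909%. After rescaling 3 were higher, beside 4.45%, and 1 was lower, beside 6.31%. Their median log2 fold change was 0.58 as deposited and 0.28 rescaled. Psme1, a subunit of the proteasome activator, read 3.59, 3.82, 5.35, 5.03 and 4.72, with a log2 fold change of 1.33 (SE 0.26, adjusted p = 0.0974), 0.81 rescaled. Shisa5 read 3.55, 4.10, 4.86, 4.84 and 4.93, with a log2 fold change of 1.05 (SE 0.24, adjusted p = 0.0974), 0.53 rescaled.

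At the other end, Ifitm1, a relative of Ifitm3, read 3.83, 3.48, 3.01, 3.54 and 2.20. Its log2 fold change was -0.73 (SE 0.39, adjusted p = 0.217 by limma) and -1.23 rescaled. On rescaled values all its SIGLEC12 values were below the Control values, as for 16.8% of all genes. Like Psme1 and Shisa5, Ifitm1 was picked by its p from these same values, so its separation is not independent of that choice. Uba7, the enzyme that activates ISG15, had a log2 fold change of -0.05 (adjusted p = 0.882), and -0.32 rescaled.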

How the data were processed

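RNA from 2 Control and 3 SIGLEC12 samples of colon tumor was sequenced, and the groups came from the labels of the samples. The authors deposited log2 values for 52143 mouse genes, and 2 to the power of a value, minus 1, summed to between 999999 and 1000001 in each sample, so the deposited unit was log2(TPM + 1). The submitters' processing notes name kallisto 0.45.0 and GRCm38, whereas the study's methods name another kallisto version and a human build. The labels give a total RNA kit and the methods an mRNA kit, and the treatment of technical replicate libraries was not given in the sources used here. Of the gene identifiers, 98.45% were in GENCODE M21, which gave biotypes. TPM keeps no depth, so the depth per sample is unknown and no count model or counting interval was used. Columns of values without a sample numbered 0. The series text counts 3 mice in each group, so 1 Control mouse is not analysed here.

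Genes with a TPM of at least 1 in at least 2 samples were fitted with limma 3.58.1 in R 4.3.3 (lmFit, then eBayes with trend) as log2(TPM + 1) and adjusted by Benjamini-Hochberg over all of them, and a call was an adjusted p under 0.05. Fold changes are on the log2(TPM + 1) scale, which understates changes of low genes. Rescaled values multiply each sample so that its protein-coding TPM total equals the mean of the 5. The fit was tested on simulated data. Described in full were the 8 tested genes of highest mean TPM, the 4 of largest and the 4 of lowest log2 fold change. Promoter stretches were printed for the first 4 of these, by level, with a motif before both the RefSeq and the GENCODE start. From the other lists, the genes of smallest p in each direction were named, and the receptors and kinases. Of that last list as first written, 1 further gene is not reported here and enters no count. The genes, lists and alternatives were chosen with earlier results of these data known. Other scalings, filters, pseudocounts, variance models and leaving out each sample were tried.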

Additional observations from a re-analysis of the deposited data

How the results depend on the processing

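No paired analysis was run, because the sample labels used here do not mark pairs. Replicate numbers come from the sample titles, which do not say that equal numbers are matched. The count of members past the adjusted threshold was 0 under every alternative run. The 2 members at an unadjusted p under 0.05 became 1 with no filter on low values and 0 with a TPM filter of at least 5, with rescaling, with median-ratio size factors and with quantile normalization. The 7 members whose groups did not overlap became 2 under the filter of 5, which kept 4 members, and 0 under each of the 3 scalings. Leaving out each sample in turn, on deposited or, as an alternative chosen after seeing the data, on rescaled values, moved the unadjusted count from 0 to 12 higher and from 0 to 1 lower (Ddx58), the count that did not overlap from 0 to 20 higher and from 0 to 3 lower, and the median log2 fold change from -0.04 to 0.70. With 1 Control sample left, that sample was assumed to vary like the SIGLEC12 samples. Rescaling, size factors and quantile normalization turned Stat2 to -0.24, -0.24 and -0.19, Ddx58 to -0.11, -0.11 and -0.06, Parp14 to -0.11, -0.11 and -0.05, Isg20 to -0.10, -0.10 and -0.04 and Ifitm3 to -0.06, -0.07 and -0.01, and Trim25 was -0.02 with rescaling and -0.03 with size factors. Leaving out each sample moved Stat2 from -0.19 to 0.26, Ddx58 from -0.28 to 0.63 and Parp14 from -0.09 to 0.52, the lowest without Control replicate 1 and the highest without Control replicate 4, and Stat2 was also below 0, at -0.04, without SIGLEC12 replicate 2. The causes were not tested. With the requirement of a C or T after the ISRE core, 14 of 29 members held it in place of 17. TPM keeps no depth, so the counting error behind these values is unknown.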
